A study of Mus musculus with 24 samples.

Results

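The exit of mouse embryonic stem cells (mESCs) from the self-renewing state was described in 3 male lines that were heterozygous for Smchd1 (het, Smchd1[del/+]), by comparing their 3 day 2 libraries with their 3 day 0 libraries. These are 6 of the 24 poly(A) RNA sequencing libraries of the series, and were chosen by their labels alone, with all genes of the count table kept. Each line was derived from a blastocyst whose mother was Castaneus and whose C57BL/6 father had a deleted (del) and a floxed (fl) allele of Smchd1 together with an MMTV-Cre transgene, so that the het lines inherited the deleted allele from the father, while wild-type (wt, Smchd1[fl/+]) lines of the same cross inherited the floxed allele. The mothers were Smchd1+/+, so that the oocytes carried an intact gene in either genotype. A line is a separate blastocyst derivation and is the replicate (n = 3), and it gave 1 library before and 1 after the change of medium. At day 0 the cells were in DMEM with serum and leukaemia inhibitory factor (LIF). They had been weaned in steps from 2i + LIF medium, in which 2 inhibitors block the kinases MEK and GSK3, and the last mixture before seeding still held part of that medium. MEK lies above ERK in the FGF pathway, and inhibition of GSK3 activates Wnt signalling. At day 2 they had been kept in serum-free N2B27 medium with basic FGF and without LIF, and an activator of Wnt signalling was added only from this point on. The day 2 wells were also seeded at a lower density, so that the loss of LIF, the loss of serum, the recent withdrawal of the 2i inhibitors, the added FGF, the density and the time in culture cannot be told apart. The 3 wt lines sampled on the same days were used as a comparison.

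LIF keeps mESCs in the naive state of the early blastocyst epiblast by activating the kinase JAK and the transcription factor STAT3, which in turn sustain factors such as Klf4. Bone morphogenetic proteins, which serum supplies, act through Smad proteins to induce the Id genes, inhibitors of lineage commitment. FGF acts through ERK in the opposite sense, and cells freed from LIF pass through a formative to a primed state that resembles the epiblast of the implanted embryo, before they can respond to signals for neural or mesodermal fates.

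The 6 libraries held 15.5 to 18.8 M (mega) counts, so that 3 counts, taken as the smallest level a library could show, were 0.159 to 0.193 counts per M counts (CPM). Levels are given as CPM, with library sizes corrected by TMM factors (trimmed mean of M-values). Floors and intervals here take in counting error alone, since reads that carry no molecular identifier may be copies of the same molecule. Across genes, log2 CPM correlated at 0.961 to 0.987 between libraries of a day and at 0.894 to 0.915 between days. Smchd1 (ENSMUSG00000024054, chromosome 17, 71344489 to 71475343), a noncanonical SMC protein of silent chromatin, had 98.0, 86.4 and 90.1 CPM at day 0 and 111, 117 and 119.8 CPM at day 2 in lines 1, 2 and 3. All 3 day 2 libraries lay above all 3 day 0 libraries, and the gene rose slightly (log2 fold change 0.35, SE 0.08, adjusted p 0.00103). Of markers of other cell types, those of primitive endoderm and fibroblasts moved in sum between the days, while the sums of trophoblast markers overlapped. The summed level of 23 primitive endoderm markers was 2044 to 2772 CPM at day 0 and 6029 to 8186 CPM at day 2, that of 17 trophoblast markers was 306 to 354 CPM at day 0 and 292 to 345 CPM at day 2, and that of 14 fibroblast markers was 19.5 to 20.2 CPM at day 0 and 25.2 to 28.3 CPM at day 2. The part of such cells in the results was not tested, and their markers are described further on. In bulk RNA, fewer cells of a type and less RNA per cell cannot be told apart.

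Of the 35591 genes in the table, 15303 had enough counts to be tested, and 8582 of these passed an adjusted p of 0.05 (Benjamini-Hochberg over all genes tested, 56.1%). That threshold is what the words "rose", "fell" and "called" refer to. They divided into 4282 genes that rose (28.0% of those tested) and 4300 that fell (28.1%). A change of at least 2-fold was found in 1810 genes that rose (11.8%) and in 1480 that fell (9.67%). For 63.2% of genes tested, the 3 libraries of day 2 did not overlap the 3 of day 0. The median log2 fold change over all genes tested was 0.01, with the central 50% of genes between -0.50 and 0.57. So large a share of genes changed that a call on its own says little about a gene list, and each list below is read against these shares and this median. Lists overlap in places, and the p-values of genes within a list are adjusted over all genes tested.

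**Figure D1:**
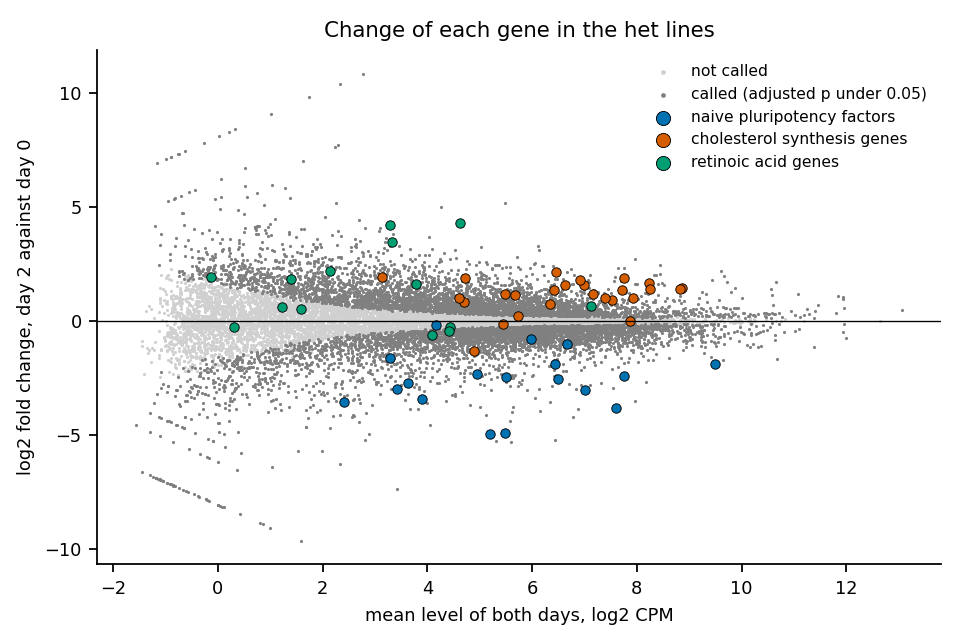
Log2 fold change (day 2 against day 0) of each gene tested against its mean level over both days in log2 CPM, in the 3 het lines. Each point is a gene, with called genes in dark grey and 3 lists in colour. Of these, 17 of the 18 naive factors fell, 22 of the 26 cholesterol genes rose, and the parallel streaks at the left are genes with 0 or a few counts on a day.

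The naive pluripotency factors fell almost without exception. Of 18 tested, 0 rose and 17 fell, 16 of them at least 2-fold, with a median log2 fold change of -2.50. Their summed level was 2854 to 3242 CPM at day 0 and 631 to 681 CPM at day 2. Klf4 (ENSMUSG00000003032, chromosome 4, 55527143 to 55532466), a direct target of LIF signalling, had 72.2, 66.5 and 73.8 CPM at day 0 and 1.92, 3.07 and 1.64 CPM at day 2 in lines 1 to 3, which left 3.12% of its day 0 mean (log2 fold change -4.98, SE 0.17, adjusted p 6.69e-12). Esrrb (ENSMUSG00000021255, chromosome 12, 86361117 to 86521628), an orphan nuclear receptor of the naive network, had 364, 385 and 339 CPM at day 0 and 20.1, 28.3 and 28.3 CPM at day 2 (log2 fold change -3.82, SE 0.11, adjusted p 1.06e-12). Both genes were far above their day 2 level in every day 0 library, with no overlap. Nanog (ENSMUSG00000012396, chromosome 6, 122707489 to 122714633), the homeobox factor named for its hold on self-renewal, had 336, 419.5 and 345 CPM at day 0 and 68.3, 57.2 and 77.4 CPM at day 2 (log2 fold change -2.43, SE 0.10, adjusted p 5.34e-11). Zfp42 (ENSMUSG00000051176, chromosome 8, 43295063 to 43306980), also known as Rex1 and widely used to report the naive state, had 231, 239.6 and 219.8 CPM at day 0 and 27.0, 28.8 and 27.6 CPM at day 2 (log2 fold change -3.04, SE 0.08, adjusted p 2.89e-13). Nanog thus kept a larger share of its level than Klf4, Esrrb or Zfp42. The X-linked orphan receptor Nr0b1 fell by 4.93 on the log2 scale, from 86.6 to 2.80 CPM, and Prdm14, which restrains FGF signalling and DNA methylation in naive cells, fell by 3.57, from 9.75 to 0.796 CPM. The only member not called was Gbx2, with a log2 fold change of -0.17 and overlapping libraries (19.0 and 16.9 CPM on average).

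The core factors, which naive and primed cells share, fell less and not all of them did. Of 12, 10 fell and 2 rose, and the median was -0.98. Pou5f1 (ENSMUSG00000024406, chromosome 17, 35506018 to 35510772), which encodes Oct4, had 1112, 1133 and 1107 CPM at day 0 and 837, 828 and 796 CPM at day 2, a fall to 73.4% (log2 fold change -0.44, SE 0.05, adjusted p 9.06e-07). Its partner Sox2 (ENSMUSG00000074637, chromosome 3, 34650405 to 34652461) had 215, 218 and 244 CPM at day 0 and 68.3, 60.4 and 63.8 CPM at day 2 and was left at 28.4% (log2 fold change -1.81, SE 0.08, adjusted p 5.34e-11). The pair therefore moved unequally, with the 3 day 2 libraries below those of day 0 for each. Dppa2, a chromatin factor of early embryos, fell by 1.89 on the log2 scale, and L1td1, an RNA-binding protein of pluripotent cells, by 1.72. The members that rose were the let-7 inhibitors Lin28b (log2 fold change 0.79, from 58.4 to 101 CPM) and Lin28a (0.19, from 613 to 696 CPM). The call of Lin28a was lost in a fit of all 24 libraries (adjusted p 0.0908).

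Of 19 formative and primed epiblast factors, 11 rose, 4 fell and 4 were not called, with a median of 0.38. The rises were small for several of the best known members. Otx2 (ENSMUSG00000021848, chromosome 14, 48657677 to 48673819), the homeobox factor of the formative epiblast, had 61.4, 51.0 and 53.5 CPM at day 0 and 81.7, 67.2 and 65.0 CPM at day 2 (log2 fold change 0.38, SE 0.11, adjusted p 0.00744), and its adjusted p was 0.0555 without the day 2 library of line 1 and 0.276 in the fit of 24 libraries. Pou3f1 (ENSMUSG00000090125, chromosome 4, 124656807 to 124660655), or Oct6, had 37.9, 27.0 and 39.5 CPM at day 0 and 57.5, 47.2 and 50.7 CPM at day 2 (log2 fold change 0.58, SE 0.14, adjusted p 0.0019). Dnmt3b (ENSMUSG00000027478, chromosome 2, 153649450 to 153687730), a de novo DNA methyltransferase, was already at 937 CPM on average at day 0 and rose to 1186 CPM (log2 fold change 0.35, SE 0.06, adjusted p 0.000109). Fgf5 (ENSMUSG00000029337, chromosome 5, 98254184 to 98277030), the classic marker of the primed epiblast, had 13.2, 10.5 and 10.5 CPM at day 0 and 14.8, 8.74 and 9.90 CPM at day 2, so its libraries overlapped and it was not called (log2 fold change -0.02, SE 0.21, adjusted p 0.943). Its sign depended on the setting, as a log2 fold change of 0.13 without the day 2 library of line 2 shows. The ephrin receptor gene Epha1 (log2 fold change 2.04, from 25.01 to 102 CPM) rose more, as did Sox3 (1.81, from 2.67 to 9.35 CPM) and Sox11 (1.25, from 35.6 to 84.1 CPM), which encode Sox factors of the early neural epithelium. Exons of Epha1 overlap those of Zyx on the other strand, and reads of the pair cannot be told apart where the library was not stranded. Foxd3, a forkhead repressor of the formative transition, fell by 2.59 on the log2 scale (from 11.1 to 1.82 CPM), Fgf15 by 1.34 and the FGF-responsive Ets factor Etv5 by 0.96.

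**Figure D2:**
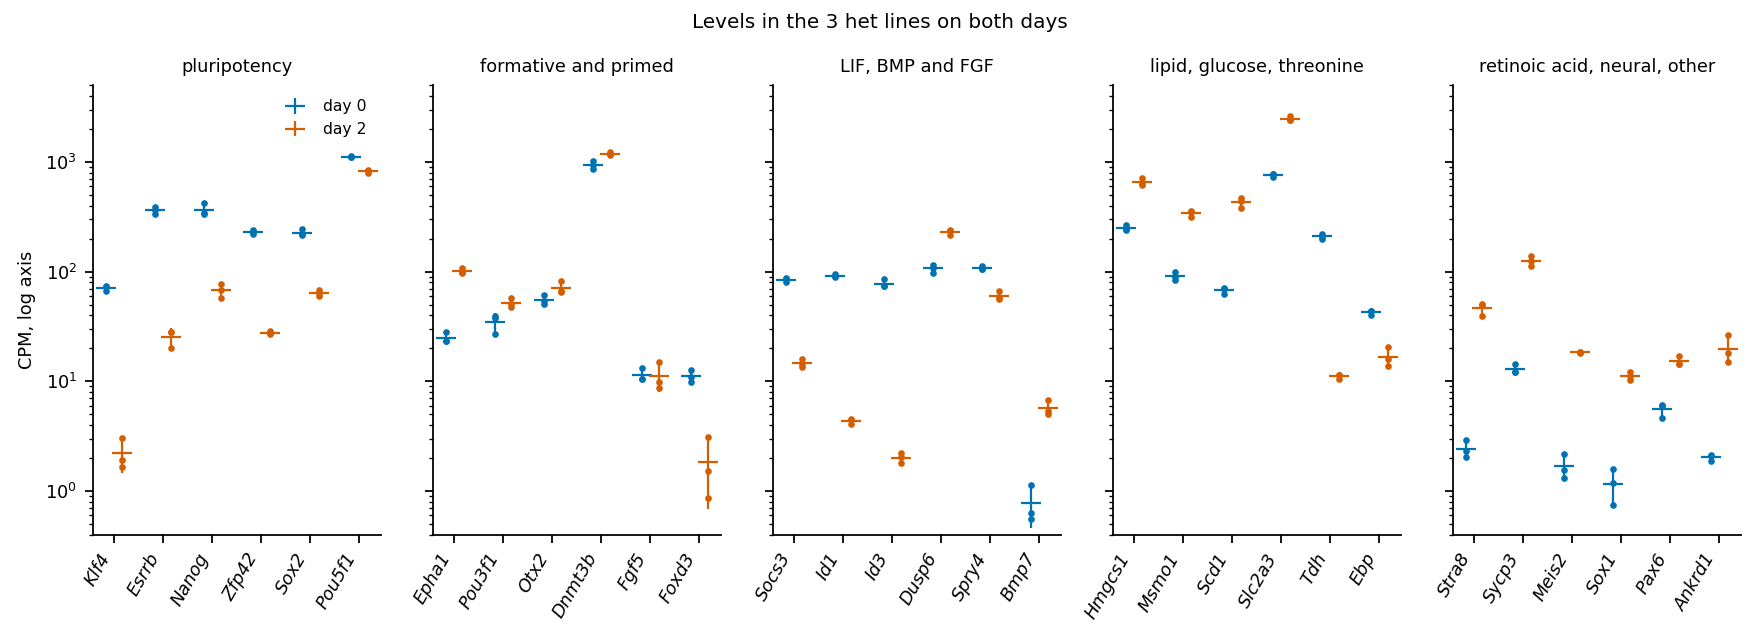
Levels of 30 genes in CPM (log axis) in the 3 het lines at day 0 (blue) and day 2 (orange). Points are libraries, horizontal marks are means and vertical bars are the SD (n = 3). The days are apart for Klf4, Id3 and Tdh, which fell, and for Msmo1, Stra8 and Sox1, which rose, and they overlap for Fgf5.

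On the deposited log2 scale of reads per kilobase and library total (log2 RPKM), which allows levels of different genes to be compared, Pou5f1 was the highest of the 34 factors in that table on both days, at 8.87 ± 0.02 at day 0 and 8.48 ± 0.05 at day 2 (SD, n = 3). Tdgf1, the Nodal co-receptor Cripto, was the second at day 0, at 8.35 ± 0.12, and the third at day 2, at 6.98 ± 0.03. Nanog was the third at day 0, at 7.26 ± 0.18, a level it shared within the spread with Ctnnb1, which encodes beta-catenin, at 7.15 ± 0.05. At day 2 Ctnnb1 was the second, at 7.24 ± 0.02, while Nanog stood at 4.88 ± 0.22, close to Sox2 at 4.93 ± 0.10.

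Of 14 genes of the LIF and JAK-STAT3 pathway tested, 9 fell, 3 rose and 2 were not called (median -1.10). The receptor genes fell, Lifr from 95.1 to 45.0 CPM and its partner Il6st, or gp130, from 105 to 48.0 CPM, as did Stat3 itself, from 76.8 to 32.4 CPM. Socs3 (ENSMUSG00000053113, chromosome 11, 117966079 to 117970047), the feedback inhibitor that STAT3 induces, had 86.2, 87.1 and 80.4 CPM at day 0 and 14.3, 13.5 and 15.9 CPM at day 2 (log2 fold change -2.53, SE 0.11, adjusted p 4.02e-11). Its day 2 libraries all lay below those of day 0. Bcl3 (log2 fold change -2.63) and Junb (-1.47) of the same list, named by a rule that asked for no overlap, fell as well. The genes of the list that rose were the kinase genes Jak2 (1.02), Jak1 (0.78) and Pim1 (0.84, from 88.6 to 158 CPM). Other kinase genes of the list did not, as Pim3 fell by 0.25 and Tyk2 was not called, at -0.15. The call of Pim3 was lost without line 1 or line 2 (adjusted p 0.101 and 0.07) and in the fit of all 24 libraries (0.173).

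Of the Id genes, Id1, Id2 and Id3 fell steeply. Id1 (ENSMUSG00000042745, chromosome 2, 152736251 to 152737410) had 94.4, 89.2 and 90.5 CPM at day 0 and 4.48, 4.40 and 4.04 CPM at day 2 (log2 fold change -4.39, SE 0.12, adjusted p 6.21e-13), and Id3 (ENSMUSG00000007872, chromosome 4, 136143497 to 136145755) had 85.3, 74.1 and 73.3 CPM at day 0 and 2.04, 1.79 and 2.21 CPM at day 2, or 2.60% of its day 0 mean (log2 fold change -5.26, SE 0.15, adjusted p 9.43e-13). All day 2 libraries of both were far below the day 0 libraries. Id2 fell by 3.40 on the log2 scale, from 121 to 11.4 CPM, Bmp4 by 3.13, from 45.2 to 5.15 CPM, and the inhibitory Smad gene Smad7 by 2.41. Id4 fell by 1.25 from a low level (from 2.93 to 1.23 CPM, adjusted p 0.0466), and its call was lost in 9 alternatives, among them those without the day 0 library of line 1, 2 or 3 (adjusted p 0.209, 0.0611 and 0.103) or the day 2 library of line 2 (0.113). Over the BMP list, 7 of 17 fell and 4 rose (median -0.50, and -0.99 to -0.26 over the alternatives). Those that rose were the ligand gene Bmp7 (ENSMUSG00000008999, chromosome 2, 172868012 to 172940321), with 1.14, 0.553 and 0.631 CPM at day 0 and 6.70, 5.32 and 5.05 CPM at day 2 (log2 fold change 2.86, SE 0.41, adjusted p 2.25e-05), the receptor genes Bmpr2 (0.60) and Bmpr1a (0.48), and Smad1 (0.70), which passes the BMP signal to the nucleus.

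Genes of the FGF pathway moved in both directions. Of 18 feedback and target genes of FGF and ERK, 7 rose, 5 fell and 6 were not called (median 0.01). Dusp6 (ENSMUSG00000019960, chromosome 10, 99263231 to 99267489), the phosphatase that inactivates ERK and is itself induced by it, had 108, 97.3 and 116 CPM at day 0 and 241, 215 and 234 CPM at day 2 (log2 fold change 1.11, SE 0.08, adjusted p 9.78e-09). By contrast Spry4 (ENSMUSG00000024427, chromosome 18, 38586247 to 38601415), another feedback inhibitor, had 105, 112 and 106 CPM at day 0 and 66.2, 58.3 and 56.1 CPM at day 2 (log2 fold change -0.83, SE 0.09, adjusted p 7.5e-07). The libraries of the days did not overlap for either gene. Il17rd (Sef, log2 fold change 1.14), Spred1 (1.14) and Dusp4 (1.09) rose with Dusp6, whereas Spry2 (-0.79), Dusp14 (-1.10) and Myc (-1.75, from 75.9 to 22.4 CPM) fell. The immediate early genes Egr1 (-0.51, from 10.4 to 7.25 CPM) and Fos (-0.94) were not called, although Egr1 was without the day 2 library of line 3 (adjusted p 0.0115). Among 11 ligands and receptors, 6 fell and 4 rose. Fgf4, the main ligand that mESCs make, fell by 0.53 on the log2 scale (from 239 to 164 CPM), Fgf17 by 2.96 and the receptor gene Fgfr2 by 1.60 (from 64.8 to 21.3 CPM), while Fgfr1, the main receptor of the epiblast, rose by 0.41 (from 72.5 to 95.5 CPM). The call of Fgfr1 was lost in the fit of all 24 libraries (adjusted p 0.15).

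Primitive streak and caudal genes include transcription factors that the later Wnt step is meant to switch on, and ligand and inhibitor genes that mESCs already express. Of 22 listed, 11 had enough counts to be tested, and of these 0 rose and 6 fell. Cdx2 (log2 fold change 1.13, adjusted p 0.0659) was called as a rise in the fit of 24 libraries (adjusted p 0.0116). Wnt3, among those that fell, lost its call without line 1, 2 or 3 (adjusted p 0.0706, 0.0511 and 0.0721). T (ENSMUSG00000062327, chromosome 17, 8434423 to 8442496), or brachyury, had 2.22, 1.05 and 1.51 CPM at day 0 and 0.175, 0.579 and 1.39 CPM at day 2 and was not called (log2 fold change -1.16, SE 0.70, adjusted p 0.175). Its libraries overlapped, and without the day 2 library of line 3 the log2 fold change was -2.05 with an adjusted p of 0.0347. The genes that fell included the Nodal target and inhibitor genes Lefty1 (log2 fold change -2.04, from 38.4 to 9.31 CPM) and Lefty2 (-2.15, from 43.0 to 9.65 CPM) and Nodal itself (-1.43, from 52.9 to 19.5 CPM). Wnt3a had 25 to 41 counts a library at day 0 and 0 or 1 at day 2. It passed the filter on low counts only through day 0 and could be called only as a fall. Of 11 Wnt target and feedback genes tested, 4 rose and 4 fell (median -0.06), with Axin2, the most general target, at -0.06 and not called. Rnf43 passed the filter on low counts only through day 2, and Notum and Dkk1 only through day 0. The direction of their calls was thus fixed. Notum, which encodes a secreted Wnt deacylase, had 397 counts over the 3 day 0 libraries and 7 over those of day 2, a ratio of 56.4 (95% exact interval 27.1 to 141, counting error only). Rnf43, whose product removes Wnt receptors, rose from 0.192 to 3.81 CPM, and the Dishevelled inhibitors Nkd1 and Nkd2 rose by 2.46 and 1.58 on the log2 scale. Tcf7l1, the Tcf that represses pluripotency genes, fell by 1.22.

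Most called genes of the retinoic acid pathway rose. Retinoic acid is made from retinol, binds receptors of the Rar family at paired repeats in DNA, and induces the enzymes that degrade it. Of 14 genes tested, 8 rose, 2 fell and 4 were not called, with a median log2 fold change of 1.13. That median ran from 0.66 to 1.23 over the alternatives. Stra8 (ENSMUSG00000029848, chromosome 6, 34920163 to 34939344), named for its stimulation by retinoic acid and needed for meiosis, had 2.06, 2.34 and 2.90 CPM at day 0 and 51.0, 49.4 and 39.4 CPM at day 2 (log2 fold change 4.27, SE 0.18, adjusted p 4e-11). Each day 2 library was at least 10 times as high as the highest at day 0. Meis2 (ENSMUSG00000027210, chromosome 2, 115863064 to 116065839), a partner of Hox proteins, had 2.16, 1.54 and 1.32 CPM at day 0 and 18.6, 18.1 and 18.5 CPM at day 2 (log2 fold change 3.45, SE 0.23, adjusted p 5.59e-09). Stra6, the retinol transporter, rose by 1.60 on the log2 scale, Cyp26a1, which degrades retinoic acid, by 2.18 (from 1.60 to 7.21 CPM), and the receptor gene Rarg by 0.66 (from 108 to 170.0 CPM). Rarb rose by 1.94 from 3 to 10 counts a library at day 0 to 8 to 50 at day 2, with an adjusted p of 0.0472 and overlapping levels. Its call was lost in 9 alternatives, with an adjusted p of 0.106 with the line as a block and 0.409 without the day 2 library of line 1. Rara fell by 0.64 on the log2 scale.

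Promoters of the list were searched for the element to which retinoic acid receptors bind, a pair of half-sites spaced by 5 bases (DR5), on both strands of the 250 bases before the RefSeq start of each gene (GRCm38.p6). It was found in 2 of the 12 list genes with a promoter in RefSeq and in 0.307% of all 27025 promoters. The 2 genes were Cyp26a1 (chr19:37697558-37697807, plus strand) and Rarb (chr14:16575477-16575726, minus strand), and their upstream sequences are shown to place the element, in capitals, near the start.
Cyp26a1: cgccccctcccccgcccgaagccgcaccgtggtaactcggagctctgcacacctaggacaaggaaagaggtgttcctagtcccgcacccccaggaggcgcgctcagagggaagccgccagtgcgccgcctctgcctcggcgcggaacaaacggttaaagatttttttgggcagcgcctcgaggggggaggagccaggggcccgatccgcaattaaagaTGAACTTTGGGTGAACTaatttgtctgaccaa
Rarb: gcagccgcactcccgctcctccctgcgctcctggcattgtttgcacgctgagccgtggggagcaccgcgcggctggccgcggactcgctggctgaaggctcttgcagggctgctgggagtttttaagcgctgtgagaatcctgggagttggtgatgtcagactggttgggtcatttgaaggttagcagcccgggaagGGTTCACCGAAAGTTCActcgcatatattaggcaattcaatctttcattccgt
In Rarb it reads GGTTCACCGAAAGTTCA on the strand of the gene, and in Cyp26a1 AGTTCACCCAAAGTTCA on the other strand. Stra8 and Meis2, which rose most, held no match in this window. Window and element were chosen after the values of the list were known.

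Of 27 genes of Hox groups 1 to 9, 3 had enough counts to be tested, Hoxd1 and Hoxa3 among them. Both passed the filter on low counts only through their day 2 libraries, so that they could be called only as rises, and 1 gene of the list was left with a mean of at least 50 counts. Hoxd1 had 0 to 2 counts a library at day 0 and 28 to 38 at day 2, and Hoxa3 went from 0 to between 14 and 38 counts. Of the list, 15 genes had 0 counts in each day 0 library, and Hoxa6, Hoxc6, Hoxc8 and Hoxd4 had 0 in all 6 libraries. The summed level of the list stayed low, at 1.41 to 2.77 CPM at day 0 and 26.9 to 36.2 CPM at day 2.

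Neural genes showed a partial change. Of 22 listed, 8 were tested, 3 rose and 4 fell. Sox1 (ENSMUSG00000096014, chromosome 8, 12395295 to 12400126), the first marker of neural plate identity, had 1.19, 0.738 and 1.58 CPM at day 0 and 11.1, 10.4 and 12.05 CPM at day 2 (log2 fold change 3.26, SE 0.30, adjusted p 2.25e-07). Pax6 (ENSMUSG00000027168, chromosome 2, 105668900 to 105697364), a homeobox gene of neural and eye progenitors, had 4.65, 5.90 and 6.05 CPM at day 0 and 16.9, 14.5 and 14.4 CPM at day 2 (log2 fold change 1.48, SE 0.19, adjusted p 1.02e-05). Both stood clear of their day 0 levels in all lines, yet at a modest level. Hesx1, of the anterior epiblast and forebrain, fell by 2.97 on the log2 scale (from 3.98 to 0.499 CPM), Sox21 by 1.60 and the tubulin gene Tubb3 by 1.12 (from 102 to 46.8 CPM). Hesx1 passed the filter on low counts only through day 0 and could be called only as a fall. Nestin (Nes) was not called, at 0.20. The other 14 genes, Neurog2 among them, had too few counts to be tested.

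Cholesterol synthesis genes rose nearly throughout. Cells make cholesterol from acetyl-CoA in a long chain of enzymatic steps, and the transcription factor SREBP2 (Srebf2) activates the genes of these steps when sterols are scarce. Of 26 genes, 22 rose, 1 fell and 3 were not called, and the median log2 fold change was 1.26. The summed level went from 2226 to 2428 CPM at day 0 to 5061 to 5491 CPM at day 2. Hmgcs1 (ENSMUSG00000093930, chromosome 13, 119690379 to 119708260), which makes HMG-CoA at the start of the pathway, had 267, 245 and 239 CPM at day 0 and 612, 641 and 716 CPM at day 2 (log2 fold change 1.40, SE 0.07, adjusted p 1.33e-10). The spread among lines was small beside the step between days. Msmo1, a methylsterol oxidase late in the pathway, rose by 1.90 on the log2 scale (from 91.5 to 341 CPM), and Srebf2 itself by 1.41 (from 168 to 442 CPM). Among genes of sterol sensing and transport, Stard4, which carries sterol, rose by 2.13 and Insig1, the sterol-dependent brake on SREBP, by 1.80. Ebp (ENSMUSG00000031168, chromosome X, 8185329 to 8193512), the X-linked sterol isomerase, was the exception, with 43.8, 44.0 and 40.6 CPM at day 0 and 15.96, 20.7 and 13.8 CPM at day 2 (log2 fold change -1.34, SE 0.14, adjusted p 1.22e-06). Idi1 (-0.12) and Ggps1 (0.19, but called at 0.36 without line 1) were not called.

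SREBP proteins act together with NF-Y, which binds the CCAAT box. Of the 18 list genes with a promoter in RefSeq, 16 (88.9%) held CCAAT on either strand within 250 bases before the start, against 34.5% of all 27025 promoters. The sterol element TCACNCCAC was found in 1 of them, that of Hmgcs1, and in 1.04% of all promoters. The upstream sequences of Hmgcs1 (chr13:119690101-119690350, plus strand), Msmo1 (chr8:64733579-64733828, minus strand) and Ebp (chrX:8193513-8193762, minus strand) are shown because the first pair rose and Ebp fell. Capitals mark CCAAT, which reads ATTGG where it lies on the other strand, and in Hmgcs1 also the sterol element.
Hmgcs1: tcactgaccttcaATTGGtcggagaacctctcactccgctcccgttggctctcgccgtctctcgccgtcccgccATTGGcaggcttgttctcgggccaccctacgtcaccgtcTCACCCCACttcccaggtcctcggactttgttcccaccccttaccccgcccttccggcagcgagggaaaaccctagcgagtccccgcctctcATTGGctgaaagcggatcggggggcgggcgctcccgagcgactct
Msmo1: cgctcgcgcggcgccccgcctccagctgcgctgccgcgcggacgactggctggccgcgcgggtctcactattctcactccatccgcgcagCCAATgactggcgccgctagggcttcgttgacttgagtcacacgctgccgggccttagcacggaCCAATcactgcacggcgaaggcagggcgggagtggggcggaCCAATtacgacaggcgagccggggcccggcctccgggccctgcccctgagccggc
Ebp: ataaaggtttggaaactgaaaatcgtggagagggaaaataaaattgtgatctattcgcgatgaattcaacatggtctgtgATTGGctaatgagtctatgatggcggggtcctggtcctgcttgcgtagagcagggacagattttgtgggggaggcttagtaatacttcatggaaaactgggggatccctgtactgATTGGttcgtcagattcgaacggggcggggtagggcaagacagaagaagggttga
Each of these promoters held at least 2 CCAAT boxes, that of Ebp included. With Ebp as the only gene of the list that fell, whether the box goes with the direction of change cannot be told. The window and both words were chosen after the values of the list were known.

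Fatty acid synthesis genes rose as well, 10 of 12 (median 1.12). Scd1 (ENSMUSG00000037071, chromosome 19, 44394455 to 44407879), which places the first double bond in saturated fatty acids, had 69.7, 70.6 and 62.2 CPM at day 0 and 384, 444 and 468 CPM at day 2, a 6.40-fold rise of the mean (log2 fold change 2.69, SE 0.08, adjusted p 1.62e-12). Its relative Scd2 rose by 1.72 on the log2 scale (from 393 to 1286 CPM), the desaturase genes Fads1 and Fads2 by 1.77 and 1.38, and Me1, an NADPH-making enzyme, by 1.85. The synthase gene Fasn fell by 0.17 and the elongase gene Elovl6 by 0.18. Neither small fall was called when libraries were scaled by their totals alone. The call of Fasn was also lost without the day 0 or the day 2 library of line 1 or the day 2 library of line 3 (adjusted p 0.102, 0.0749 and 0.055), and that of Elovl6 without the day 0 library of line 1 or 3 or the day 2 library of line 2 (0.0512, 0.134 and 0.0785).

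Genes of glucose uptake and glycolysis rose in 15 of 20 cases, with 2 that fell (median 0.65). Their summed level was 13284 to 14781 CPM at day 0 and 24169 to 25049 CPM at day 2, larger than that of any of the other 26 lists. Slc2a3 (ENSMUSG00000003153, chromosome 6, 122727809 to 122801640), the high-affinity glucose transporter GLUT3, had 784, 726 and 775 CPM at day 0 and 2398, 2403 and 2637 CPM at day 2 (log2 fold change 1.71, SE 0.05, adjusted p 1.53e-12). Aldoc, the neural aldolase, rose by 2.79 (from 13.3 to 91.2 CPM), Pgk1 by 1.41 (from 831 to 2198 CPM) and Pfkm, a phosphofructokinase, by 1.41, while its platelet form Pfkp fell by 0.79 on the log2 scale (from 418 to 240.0 CPM). Gapdh fell by 0.45 at a level of only 26.1 CPM at day 0, its call was lost without the day 0 library of line 3 (adjusted p 0.0813), and 22.8% of the 75-base stretches of its longest transcript also occur in other genes. For Pgk1, that share was 67.5%, so the values of both depend on how such reads were counted. The core of the hypoxia response element, ACGTG, was in 7 of 19 promoters of the list (36.8%) and in 16.6% of all promoters. It was present for Pgk1 and for Pgam1 (log2 fold change 0.13, not called), and absent for Aldoc and for Pfkp, which fell. Window and word were chosen after the values were known here too, and a link to the rises was not tested.

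Genes of serine, glycine and threonine metabolism moved in both directions. Tdh (ENSMUSG00000021953, chromosome 14, 63492347 to 63509092), threonine dehydrogenase, through which mouse ESCs draw acetyl-CoA and glycine from threonine, had 208, 222 and 199 CPM at day 0 and 10.4, 11.5 and 11.4 CPM at day 2, or 5.30% of its day 0 mean at day 2 (log2 fold change -4.23, SE 0.09, adjusted p 4.53e-14). No overlap between the days was a condition for naming this gene. Its partner enzyme gene Gcat rose by 1.42 on the log2 scale (from 27.5 to 73.3 CPM), a row that shares exons with another annotated Gcat. Phgdh, Psat1 and Psph, the steps of serine synthesis, rose by 0.96, 0.60 and 1.20. Of the 75-base stretches of Phgdh, 47.4% also occur in other genes, more than for Gapdh. Higher shares than that of Gapdh were also found for Gcat (46.1%), Tagln (40.9%), Zscan4d (39.5%), Notum (28.6%), Dppa2 (25.7%), Me1 (23.1%) and Sox17 (23%). Shmt1 fell by 1.03 and Amt, of the glycine cleavage system, by 0.98. Over the list, 6 of 13 rose and 5 fell (median 0.15).

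**Figure D3:**
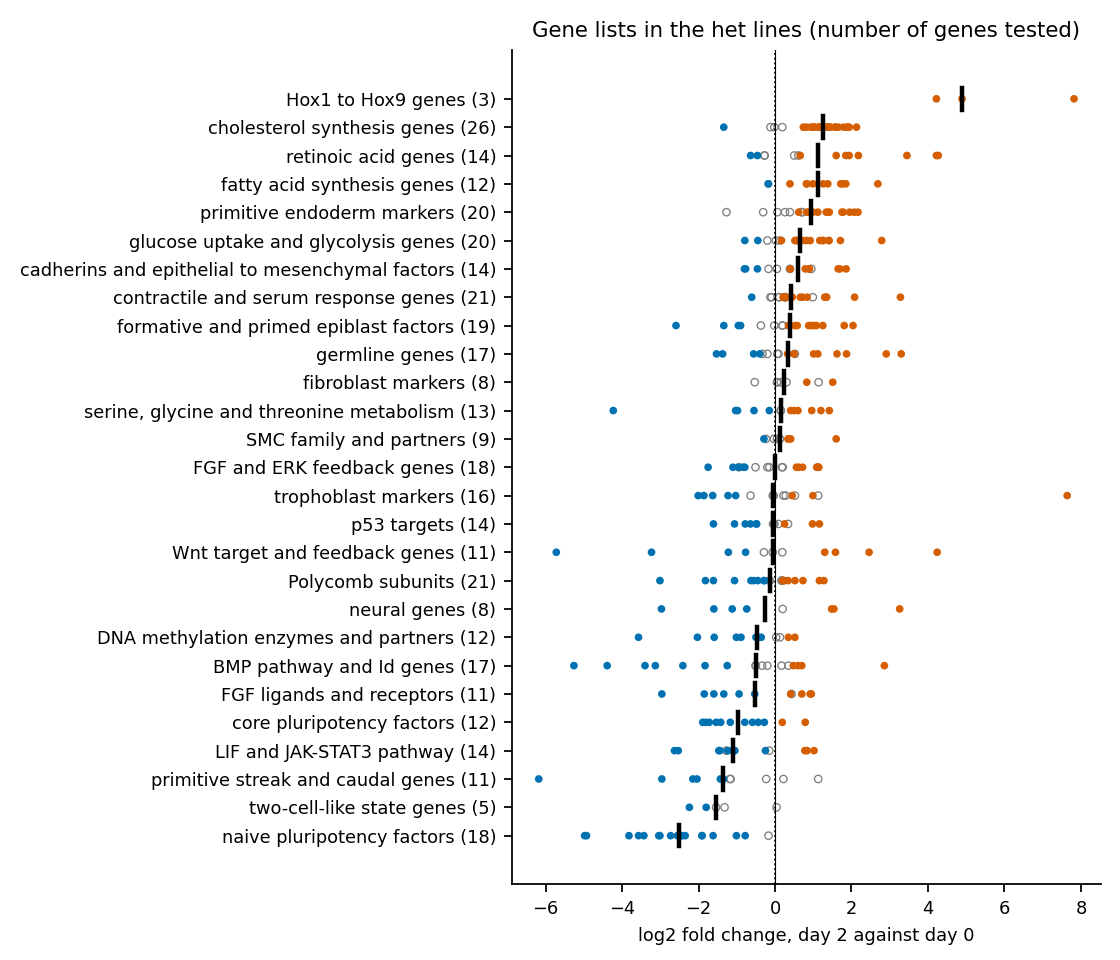
Log2 fold change (day 2 against day 0) of the tested members of 27 gene lists in the het lines, with the number tested in parentheses. Filled points were called (orange rose, blue fell), open points were not, black bars are list medians and the dotted line is the median of all genes tested, 0.01. Naive pluripotency factors lie furthest to the left, and cholesterol, retinoic acid and fatty acid genes lie to the right. The median of the Hox genes covers 3 of 27 members, of which Hoxa3 and Hoxd1 could be tested only through their day 2 level, and its place is not to be ranked against the other lists.

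Among 12 DNA methylation enzymes and partners, 8 fell and 2 rose (median -0.46). The de novo enzyme genes Dnmt3a (log2 fold change 0.52) and Dnmt3b were those that rose, while their cofactor Dnmt3l (ENSMUSG00000000730, chromosome 10, 78041947 to 78063622) had 1033, 1046 and 999.6 CPM at day 0 and 346, 346 and 327 CPM at day 2 (log2 fold change -1.59, SE 0.05, adjusted p 2.61e-12). Dnmt3l fell to 33.1% in the same libraries in which its partners rose. Zfp57, the zinc finger protein that guards imprints, fell by 2.03 (from 319 to 77.6 CPM), the demethylases Tet1 and Tet2 by 0.89 and 1.01, and the maintenance enzyme Dnmt1 by 0.50 on the log2 scale.

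Polycomb subunits, which place repressive marks on developmental genes, did not move as a group, with 7 of 21 that rose and 9 that fell (median -0.14, and -0.23 to 0.16 over the alternatives). Within the complex that methylates H3K27, Phf19 (ENSMUSG00000026873, chromosome 2, 34893757 to 34914026), an accessory subunit, had 126, 135 and 110.2 CPM at day 0 and 16.2, 15.8 and 13.8 CPM at day 2 (log2 fold change -3.01, SE 0.11, adjusted p 7.13e-12). Eed (ENSMUSG00000030619, chromosome 7, 89954654 to 89980983), a core subunit, had 348, 357 and 359 CPM at day 0 and 107, 94.6 and 97.3 CPM at day 2 (log2 fold change -1.82, SE 0.06, adjusted p 7.13e-12). Both genes were named by a rule that asked for no overlap between the days. The other core subunits changed little, Suz12 by -0.28 and the catalytic Ezh2 by 0.20, while Ezh1 rose by 1.28 on the log2 scale (from 26.8 to 64.7 CPM). Epop and Jarid2, further accessory subunits, fell by 1.61 and 1.06. In the complex that ubiquitylates H2A, Bmi1 rose by 1.16 (from 8.77 to 19.5 CPM) and Pcgf2 fell by 0.63.

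Of 17 germline genes tested, 8 rose and 4 fell. Sycp3 (ENSMUSG00000020059, chromosome 10, 88459569 to 88473236), of the meiotic synaptonemal complex, had 12.2, 12.2 and 14.5 CPM at day 0 and 125, 140.0 and 113 CPM at day 2 (log2 fold change 3.30, SE 0.11, adjusted p 5.81e-12). Other genes hold 46.9% of its 75-base stretches as well. Brdt and Mael rose by 1.87 and 1.62 on the log2 scale, while Syce1, of the same complex as Sycp3, fell by 1.37 (from 21.0 to 8.10 CPM). Of 9 SMC family genes and partners, which fold and hold chromosomes, 4 rose and 1 fell. The meiotic cohesin gene Smc1b showed the largest change, a rise of 1.60 (from 24.2 to 72.8 CPM), and the others had log2 fold changes of -0.29 to 0.41. Genes of the 2-cell-like state, a rare state of mESC cultures, were near the floor, and of 5 tested 2 fell, Zscan4d by 1.80 and Tcstv1 by 2.24. Without line 3 neither was called (adjusted p 0.0545 and 0.104), nor was Tcstv1 without the day 0 library of line 1 (0.0858) or of line 3 (0.0832). Tcstv1 passed the filter on low counts only through day 0 and could be called only as a fall.

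Of 14 cadherins and factors of the epithelial to mesenchymal transition tested, 7 rose and 3 fell. Cdh1 (ENSMUSG00000000303, chromosome 8, 106603351 to 106670246), which encodes E-cadherin, had 518, 504 and 489 CPM at day 0 and 659, 681 and 647 CPM at day 2 (log2 fold change 0.40, SE 0.05, adjusted p 5.55e-06), and Epcam rose by 0.90, Ocln by 1.70 and Cldn7 by 1.65 on the log2 scale. Cdh2, or N-cadherin, stayed low and was not called (7.58, 5.41 and 4.98 CPM at day 0 and 7.51, 7.87 and 8.07 CPM at day 2, log2 fold change 0.39, SE 0.24, adjusted p 0.174). Twist1 rose by 1.86 (from 1.77 to 6.41 CPM), whereas Fn1, Zeb1 and Vim fell by 0.77, 0.80 and 0.46. Of 21 contractile and serum response genes tested, 12 rose and 1, Actb, fell, with a log2 fold change of -0.61 (from 1935 to 1256 CPM). The rises included Ankrd1 (ENSMUSG00000024803, chromosome 19, 36111961 to 36120099), which muscle cells also express, with 1.89, 2.09 and 2.14 CPM at day 0 and 15.1, 26.2 and 18.0 CPM at day 2 (log2 fold change 3.28, SE 0.24, adjusted p 2.3e-08), Acta1 (2.08) and Tpm2 (1.35). Tagln and Acta2, of smooth muscle, were not called. Tagln had 30.2, 20.7 and 27.4 CPM at day 0 and 24.98, 30.3 and 29.1 CPM at day 2, with overlap, and Acta2 3.95, 0.676 and 3.78 CPM at day 0 and 5.12, 5.96 and 5.61 CPM at day 2 (log2 fold change 0.99, SE 0.45, adjusted p 0.0733). With the line as a block, Acta2 was called (log2 fold change 1.19, adjusted p 0.0247), as it was by limma voom, without the filter and in the fit of 24 libraries (adjusted p 0.0233, 0.013 and 0.0324). Of 14 p53 targets, 3 rose and 6 fell, Pmaip1 (Noxa) being the furthest up at 1.16 and Tigar the furthest down at -1.61. Cdkn1a (p21) was not called, at 0.09.

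Markers of the primitive endoderm, the extraembryonic lineage that lines the blastocyst cavity and that mESC cultures can form, rose in 13 of 20 tested and fell in 0 (median 0.94). Among them are collagen and laminin genes of the basement membrane. Col4a1 (ENSMUSG00000031502, chromosome 8, 11198423 to 11312826) had 208, 337 and 307 CPM at day 0 and 1029, 1445 and 1338 CPM at day 2 (log2 fold change 2.17, SE 0.14, adjusted p 5.89e-09), and Lama1 (ENSMUSG00000032796, chromosome 17, 67697259 to 67822647) had 251, 387 and 369.6 CPM at day 0 and 1036, 1458 and 1377 CPM at day 2 (log2 fold change 1.95, SE 0.14, adjusted p 1.22e-08). Both were named by a rule that asked for no overlap between the days. Of the transcription factors that define the lineage, Gata6 (ENSMUSG00000005836, chromosome 18, 11052064 to 11085635) had 6.60, 8.97 and 11.7 CPM at day 0 and 18.2, 23.5 and 27.0 CPM at day 2 (log2 fold change 1.34, SE 0.21, adjusted p 5.42e-05), and Gata4 rose by 0.89 on the log2 scale. Sox17 had 2.11, 4.92 and 4.35 CPM at day 0 and 5.59, 5.73 and 6.94 CPM at day 2 and was not called (log2 fold change 0.69, SE 0.32, adjusted p 0.0789), and Sox7 (0.06) and Hnf4a (-0.31) were not called either. With the line as a block, Sox17 had a log2 fold change of 0.76 and an adjusted p just under the threshold (0.05 when rounded). Thbd, with a log2 fold change of -1.27 (from 3.90 to 1.61 CPM) and not called, was in turn called as a fall with the block (-1.52, adjusted p 0.0297), by DESeq2 (0.0459), by voom (0.0172), without the filter (0.0105) and without the day 2 library of line 3 (0.0288). Afp and Ttr, of the mature visceral endoderm, had at most 2 and 12 counts in any library. Basement membrane collagens and laminins are also made by other epithelia, and whether such cells became more frequent was not measured.

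Of 16 trophoblast markers tested, 3 rose and 5 fell. Among these, Tpbpa passed the filter on low counts only through day 2 and Elf5 only through day 0, which fixed the direction of both calls. The transcription factor genes Ascl2 (from 25.01 to 6.86 CPM), Tfap2c and Gata2 fell by 1.86, 1.63 and 1.23 on the log2 scale. Elf5 fell by 2.01 at only 15 to 27 counts a library at day 0, a call that was lost in 11 alternatives (adjusted p 0.0689 with the line as a block, at most 0.2). Prl3d1, of primary giant cells, had 0 counts in each library. Tpbpa, of the spongiotrophoblast, was the opposite, with 2 counts over the 3 day 0 libraries and 469 over those of day 2. Krt18 and Krt19 rose by 0.45 and 0.99. Of 8 fibroblast markers tested, 2 rose, Fbln2 at 0.83 and Col6a2 at 1.51, and 0 fell, and Fap had 0 counts throughout. None of the markers was called without line 1, line 2 or any single library of these 2 lines, and 1 was called with the line as a block, where Fbln2 had an adjusted p of 0.0533.

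Among called genes with no overlap between the days and a mean of at least 50 counts on a day, the 10 with the largest rises went from at most 4 counts over the 3 day 0 libraries. They passed the filter on low counts only through their day 2 libraries, so that they could be called only as rises. Ctsj (ENSMUSG00000055298, chromosome 13, 61000179 to 61005959), a placental cathepsin, had 0 counts in each day 0 library and 14.0, 11.8 and 15.3 CPM at day 2, at least 230.4-fold higher when set against a floor of 3 counts over the 3 day 0 libraries. Prl2b1 (ENSMUSG00000069258, chromosome 13, 27383339 to 27390846), of the placental prolactin family, also had 0 counts at day 0 and 12.1, 13.5 and 4.48 CPM at day 2 (at least 171-fold). Pappa2 and Psg29, a metalloprotease gene and a pregnancy-specific glycoprotein gene, rose at least 113-fold and 67.4-fold by the same floor. Since no overlap was a condition of the choice, genes at 0 counts at day 0 had to appear in all 3 lines. Line 3 was lowest for Prl2b1. Tpbpa (ENSMUSG00000033834, chromosome 13, 60938492 to 60941984) rose by a ratio of 236 (95% exact interval 64.9 to 1954, counting error only), and the further prolactin family genes Prl7d1 and Prl2a1 by ratios of 67.7 (22.8 to 331) and 61.6 (23.8 to 228). The remaining 3 were Frzb, a secreted Wnt antagonist, with a ratio of 245 (67.6 to 2032), Klhl14 with 155 (42.7 to 1289) and the unclassified transcript Gm37691 with 54.99 (18.5 to 269). Exons of Klhl14 are shared with 4930426D05Rik on the other strand, and those of Pappa2 with 1600012P17Rik on its own strand. Of the 75-base stretches of Ctsj, Prl2b1 and Pappa2, 0 occur in other genes, and for Psg29 and Tpbpa the share is 0.242% and 0.776%.

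Of the 10 largest falls under the same count minimum, which Hoxa3 and Wnt3a did not reach, all but Calcoco2 ended at 7 counts or fewer over the 3 day 2 libraries. All but Calcoco2 thus passed the filter only through their day 0 libraries and could be called only as falls. Rsph4a (ENSMUSG00000039552, chromosome 10, 33905111 to 33916021), of the radial spoke of cilia, had 5.25, 6.64 and 6.18 CPM at day 0 and 0 counts at day 2 (at least 100.4-fold lower). Mir124a-1hg, the host transcript of a neural microRNA, and Msln, which encodes mesothelin, were also at 0 counts in each day 2 library, at least 61.0-fold and 58.0-fold lower. Krt42 (ENSMUSG00000053654, chromosome 11, 100262882 to 100269871), a type I keratin, stood higher at day 0, with 23.4, 24.2 and 16.02 CPM at day 0 and 6 counts in all at day 2, a ratio of 179 (81.9 to 489). Olfr1459, Gm46332, Tgm3 and Notum followed, with ratios of 99.9, 82.7, 57.1 and 56.4. Calcoco2 (ENSMUSG00000006056, chromosome 11, 96099326 to 96111964), a receptor of selective autophagy, fell from a higher level, with 73.2, 136 and 72.5 CPM at day 0 and 2.21, 2.49 and 2.40 CPM at day 2 (log2 fold change -5.30, SE 0.26, adjusted p 1.83e-10).

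Whether the change from day 0 to day 2 differed between the genotypes was tested with the 6 wt libraries of the same days, which have their own day 0 controls. The interaction passed the threshold for 0 of 16387 genes by edgeR (0%), where the smallest adjusted p was 0.288, and 1034 genes (6.31%) had an unadjusted p under 0.05. DESeq2 called 10 genes, the fit with the line as a block 2 (Tfpi and Ahnak), and the fit without a filter beyond 1 count 58. Of the 8582 genes called in het, 8386 had a log2 fold change of the same sign in wt (97.7%). Over the 16387 genes of the joint fit, het and wt changes had a Pearson correlation of 0.802 and a Spearman correlation of 0.84, given as a description because genes are no replicates. List medians, with het values from the fit of its own 6 libraries and wt values from the joint fit of 12, are given side by side. That of the naive factors was -2.50 in het and -2.62 in wt, that of cholesterol genes 1.26 and 1.30, that of retinoic acid genes 1.13 and 1.46, and that of primitive endoderm markers 0.94 and 1.41. The medians had opposite signs for germline genes (0.33 in het, -0.14 in wt), serine, glycine and threonine metabolism (0.15 in het, -0.06 in wt), FGF and ERK feedback genes (0.01 in het, -0.03 in wt) and Wnt target and feedback genes (-0.06 in het, 0.06 in wt). The het sign was not stable for the last pair of lists. Over the alternatives their het medians ran from -0.09 to 0.35 (FGF and ERK) and from -0.19 to 0.04 (Wnt). Het and wt medians lay apart with the same sign for primitive streak and caudal genes (-1.35 in het, -2.20 in wt). Differences between list medians were not tested. Of the 20 glycolysis genes, with medians of 0.65 in het, 0.46 in wt, 9 had an unadjusted interaction p under 0.05 by edgeR, and 0 passed its correction. Pfkl of this list was among the genes called by DESeq2 (het minus wt 0.51). Among the genes named above, Rsph4a had the smallest interaction p by edgeR (0.00018, adjusted 0.391), and it was called by DESeq2 (het minus wt -5.66). Klf4 had a log2 fold change of -4.08 in wt with a het minus wt difference of -0.91, and Esrrb had -4.35 with a difference of 0.53, each with an adjusted interaction p of 0.754. With 3 lines a genotype, differences of the size seen for Klf4 and Esrrb did not pass the correction, which does not show that the genotypes responded alike.

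**Figure D4:**
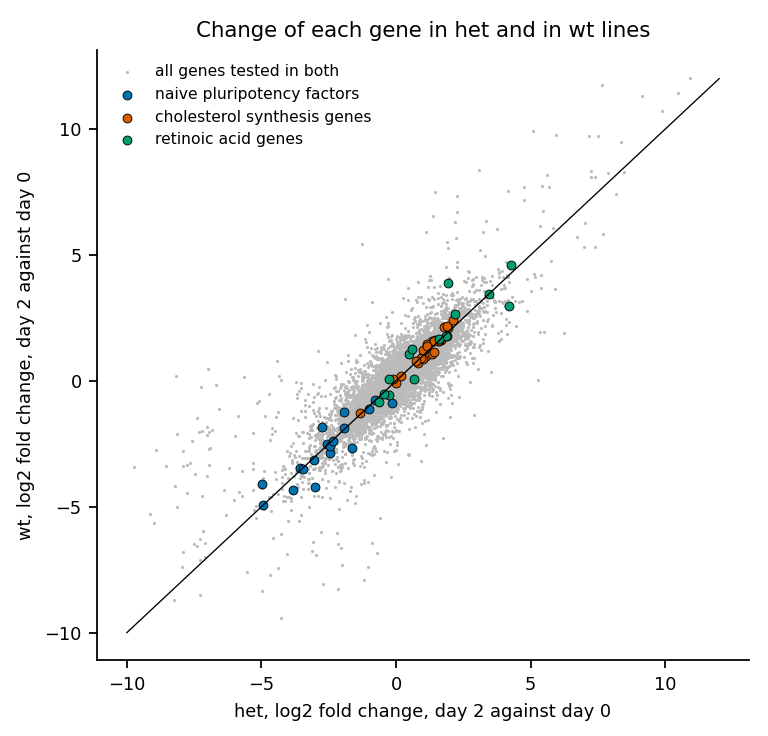
Log2 fold change (day 2 against day 0) of each gene in the 3 wt lines against that in the 3 het lines, from the joint fit of 12 libraries, with 3 lists in colour and the line of equal change. Points follow the line (Pearson correlation 0.802 across genes), and the naive factors lie at the lower left and the cholesterol genes at the upper right in both genotypes.

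The same lines were also sampled after Wnt activation, which shows what became of the day 2 levels. Means of the 3 lines were taken before the change of medium, on day 2 and then on days 2.5 and 3, as CPM scaled over all 24 libraries. Nanog had 382, 70.0, 55.8 and 61.6 CPM in this order, so most of its fall was complete by day 2. Msmo1 had 95.3, 353, 324 and 350.1 CPM in this order and stayed near its day 2 level. Sox1, with 1.22, 11.6, 1.52 and 3.17 CPM in this order, and Stra8, with 2.53, 48.3, 19.3 and 13.6 CPM in this order, were highest at day 2 among the days sampled. Meis2 had 1.74, 19.0, 11.2 and 21.1 CPM in this order. These later values are given as a description, without a test.

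**Figure D5:**
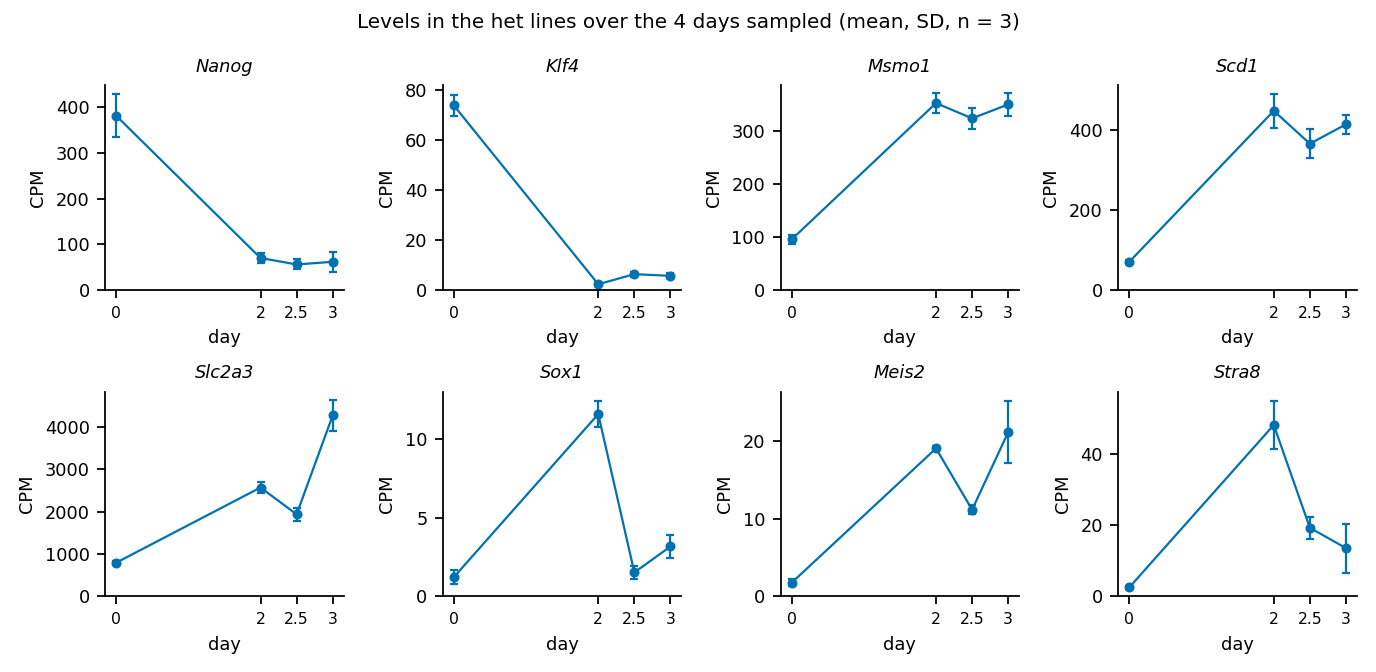
Mean levels in CPM (scaled over 24 libraries) of 8 genes in the 3 het lines against the day sampled, with bars for the SD (n = 3) and lines that join the means. Sox1 and Stra8 peak at day 2, and Nanog and Klf4 stay low after day 2.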

How the data were processed

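Poly(A) RNA was sequenced as 75-base single-end reads in 24 libraries, 3 lines for each genotype and day. Per the methods and labels, the authors trimmed reads with Trim Galore 0.4.4, aligned them with HISAT2 2.0.5 to GRCm38.p6, a C57BL/6 reference although the lines are F1 hybrids, and counted them per gene in SeqMonk. The raw counts and the log2 RPKM of selected factors and Hox genes were used as deposited. The RPKM tables also hold the authors' means of groups, which were not used. Kits were stranded or not, and which library had which, and how overlapping genes were counted, are not given in the sources used here. Of the 35591 genes, 35545 were found in GENCODE vM21.

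Counts were tested with edgeR 4.0.16 in R 4.3.3 (quasi-likelihood test, TMM factors of 0.981 to 1.02, filterByExpr, biological coefficient of variation 0.136). Fold changes carry edgeR's prior count, and genes at 0 on a day are given against a floor of 3 counts instead. A gene near 0 on a day passed the filter only through the other day, which fixed the direction of its call. DESeq2 1.42.0, limma 3.58.1 voom, other scalings and filters, thinning, leaving out libraries or lines, and the line as a block were alternatives. The number in a label names the line, so the numbers pair the day 0 and day 2 libraries. The residuals of paired libraries correlated at -0.00491 to 0.0514, and those of unpaired ones at -0.0496 to 0.021. On simulated counts for this comparison, 198 of 200 genes changed 4-fold were called, with 12 others. The simulation left the rest of 15303 genes unchanged and used a single dispersion of 0.02. It therefore does not cover small changes, low counts or a share of calls as large as here.

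Members and lists were chosen with earlier results of these data known. Named by rule were a fixed set, the 10 largest rises and falls, and the 3 largest in each direction of each list, among called genes with no overlap between days and a mean of at least 50 counts on a day, 156 in all. Other list members were named after their values were seen. Symbols found more than once were taken at the row with most counts, and 0 columns were left unmatched. Upstream sequences are from RefSeq (GRCm38.p6), with the first promoter listed for a gene. Some genes are not reported here.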

Additional observations from a re-analysis of the deposited data

Results flagged for a closer look

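Of 390 named and listed genes compared between the genotypes, 2 had lines that all moved one way in het and the opposite way in wt from day 0 to day 2, in the joint fit of 12 libraries. Whether such opposite movement is more than the spread between lines was not tested as such, but the interaction is given. Elovl6, the fatty acid elongase gene, went from 211 to 185 CPM in het, a log2 fold change of -0.19, against 0.10 in wt (interaction p 0.0348 by edgeR, adjusted 0.78). Kdm2b, a Polycomb partner that binds unmethylated CpG islands, had 0.34 in het (from 124 to 156 CPM) and -0.18 in wt (interaction p 0.000964, adjusted 0.678).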

How the results depend on the processing

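Called genes numbered 6877 to 8957 over all alternatives against 8582 as reported, the fewest without line 1. Without single libraries they numbered 7476 to 8696. Library totals alone, which moved the median of all genes to 0.049, called 4574 genes higher and 4003 lower. The fit that took the line as a replicate block called 8656, and in this pairing Acta2 (1.19) and Sox17 (0.76) gained a call while Fbln2 (0.81, adjusted p 0.0533) lost it, with no other call among the 156 named genes changed.

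The interaction count of 0 became 10 with the DESeq2 Wald test, 2 with the lines as a replicate block (Tfpi -0.72 and Ahnak -0.90) and 58 of 23678 without the filter, 57 of which pass the filter, and the cause was not tested. It was 0 under each of the other 9 alternatives. Rsph4a (-5.66), Lama5 (0.68) and Pfkl (0.51) were among the 10 of DESeq2, where the value is het minus wt.

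Of 2793 log2 fold changes of named genes under alternatives, 2727 kept their direction and side of the threshold, 50 (11 genes) lost the call, 7 (3 genes) gained it and 9 (2 genes, neither called) changed sign. Fgf5 was at 0.02 with library totals alone and 0.00 with a mean of at least 50 counts, and from -0.29 to 0.13 when libraries or lines were left out, and Tagln from -0.09 to 0.31. Ezh2, Fgfr1 and Gapdh lost their calls in the fit of 24 libraries. Under all alternatives 17 naive factors fell and 22 or 23 cholesterol genes rose. Germline genes rose in 5 to 8 cases, FGF ligands and receptors in 2 to 5, Hox genes in 1 to 3 and fibroblast markers in 0 to 2, and 2-cell-like genes fell in 0 to 4. Depth limits genes near 0.159 to 0.193 CPM.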

Other observations

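Changes also differed a little in their median between chromosomes. Of 403 X-linked genes compared, 151 rose (37.5%) and 107 fell (26.6%), with a median log2 fold change of 0.12, against 29.6% and 32.2% of 10957 genes on the other chromosomes, with a median of -0.02. The median change on X, less that of all genes, was 0.16, 0.15 and 0.12 in het lines 1, 2 and 3 and 0.24, 0.14 and 0.17 in the wt lines. Chromosome 18 had 0.15, 0.12 and 0.10 in het and 0.18, 0.15 and 0.12 in wt. The remaining chromosomes lay between -0.08 and 0.10 in the het lines. These are descriptions without a test, since genes of a chromosome are no replicates.

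By gene type, 8081 of 13680 protein-coding genes tested and 458 of 1406 long noncoding RNA genes tested were called, against 56.1% of all genes tested. The types were not matched for level or counts, and a difference between them was not tested. Among genes tested, 15 had 0 counts in each day 0 library and 42 had 0 counts in each day 2 library.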
